A study of Mus musculus with 18 samples.

Results

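The interferon-induced GTPases described here are 9 genes of 2 protein families. Gbp2, Gbp3, Gbp5, Gbp6 and Gbp7 belong to the guanylate-binding proteins (GBPs), and Iigp1, Irgm1, Irgm2 and Igtp to the immunity-related GTPases (IRGs). The genes were chosen by name, with earlier results of these data known, and all 9 were found among the 35869 gene rows of each library. They were measured by RNA sequencing of microglia, the resident macrophages of the brain, and of astrocytes, its main glial support cells, both sorted by flow cytometry after enzymatic dissociation. All mice, of the C57BL/6 background, had received 5 oral doses of tamoxifen at 180 mg/kg and carried Cx3cr1CreERT2, a tamoxifen-inducible Cre recombinase made in microglia and in other macrophages that use the Cx3cr1 promoter. KO mice carried loxP-flanked alleles of Tgfb1 (Tgfb1fl/fl) in addition, so that the gene of transforming growth factor beta 1 is deleted in those cells and not by Cre in astrocytes. Control mice, given as WT in the labels, carried the Cre alone, and no age beyond adult is stated. The values are from KO microglia (n = 4, mice 1 to 4), control microglia (n = 4, mice 1, 2, 4 and 5), KO astrocytes (n = 4, mice 1 to 4) and control astrocytes (n = 5, mice 1 to 5). Of the 18 libraries, 1 was not used in any comparison, since the cell type in its title disagrees with its code.

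Interferons bind receptors whose signals reach the nucleus through transcription factors. Interferon gamma acts mainly at DNA sites called GAS, and type I interferons mainly at sites called ISRE. Genes of both GTPase families are strongly induced in mouse macrophages and many other cells, where their proteins gather on vacuoles that hold bacteria or parasites and help to destroy them. Within the IRG family, Irgm1, Irgm2 and Igtp (also called Irgm3) are regulators that sit on the cell's own membranes and hold the effector IRGs, such as Iigp1 (also called Irga6), inactive there. The regulators carry methionine in place of lysine in the first GTP-binding motif, the P-loop, and are named GMS proteins for it, while effector IRGs and GBPs carry lysine.

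The coding stretch of the P-loop is shown because it divides the regulators from the GBP members. It is not shown for Iigp1. It was read from transcripts of the mouse annotation GENCODE M21 on GRCm38, 5′ to 3′ on the coding strand, with the codon of the methionine or lysine in capitals. The stretch lies in exon 3 of Irgm1, Irgm2, Igtp and Gbp3 and in exon 2 of the other GBP genes.
Irgm1: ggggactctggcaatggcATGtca
Irgm2: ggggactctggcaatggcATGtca
Igtp: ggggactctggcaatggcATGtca
Gbp2: ggcctctaccgcacaggcAAAtcc
Gbp3: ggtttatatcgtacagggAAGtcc
Gbp5: ggtctttatcgcacaggcAAAtcc
Gbp6: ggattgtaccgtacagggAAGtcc
Gbp7: ggactataccgtacgggaAAAtcc
The 24 bases were identical in the 3 regulators, whereas each GBP gene had its own spelling.

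The promoter bases of Igtp and Irgm2 are shown because these neighbouring genes had a smaller KO effect in microglia than in astrocytes, and those of Irgm1 and Gbp7 because these were 2 abundant genes that rose in KO microglia. Each is the 250 bases before the RefSeq start (GRCm38.p6), on the strand of the gene, and capitals mark every match to the GAS letters TTCNNNGAA or to an ISRE core, taken as GAAA, any 2 bases and GAAA again, on either strand.
Igtp (chr11:58199306-58199555, plus strand): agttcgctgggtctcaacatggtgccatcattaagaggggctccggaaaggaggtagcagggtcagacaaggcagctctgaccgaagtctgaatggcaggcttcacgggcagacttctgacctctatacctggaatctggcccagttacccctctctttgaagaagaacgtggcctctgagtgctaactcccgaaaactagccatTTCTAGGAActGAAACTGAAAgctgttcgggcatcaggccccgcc
Irgm2 (chr11:58214727-58214976, plus strand): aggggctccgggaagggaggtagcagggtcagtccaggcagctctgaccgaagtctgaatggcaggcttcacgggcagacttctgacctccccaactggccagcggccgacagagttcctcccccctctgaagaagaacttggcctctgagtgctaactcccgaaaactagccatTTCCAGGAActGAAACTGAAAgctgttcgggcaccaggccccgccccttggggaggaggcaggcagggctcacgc
Irgm1 (chr11:48871421-48871670, minus strand): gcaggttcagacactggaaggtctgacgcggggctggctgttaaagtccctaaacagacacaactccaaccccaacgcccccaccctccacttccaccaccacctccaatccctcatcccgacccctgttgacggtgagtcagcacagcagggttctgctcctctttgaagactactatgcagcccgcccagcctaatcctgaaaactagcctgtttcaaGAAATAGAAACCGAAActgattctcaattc
Gbp7 (chr3:142530086-142530335, plus strand): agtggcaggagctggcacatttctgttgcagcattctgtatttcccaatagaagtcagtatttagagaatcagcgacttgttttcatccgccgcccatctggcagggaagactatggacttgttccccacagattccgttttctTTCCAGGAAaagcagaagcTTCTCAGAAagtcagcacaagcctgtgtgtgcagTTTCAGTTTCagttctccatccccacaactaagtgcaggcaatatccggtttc
In Igtp and Irgm2 a GAS match stood immediately before an ISRE core match, from -45 to -37 and from -34 to -25 in Igtp and from -75 to -67 and from -64 to -55 in Irgm2, counted back from the start. These promoters shared a run of 55 identical bases elsewhere in the window, against at most 13 for any other pair of member promoters. Irgm1 held 2 overlapping ISRE core matches and no GAS match, and Gbp7 held 2 GAS matches and 1 ISRE core match.

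Promoters were found for 7 of the 9 members, with 2 starts for Gbp3 and none for Gbp6 and Iigp1. Of these 8 windows, 7 held an ISRE core match, 4 a GAS match and 4 both, in Gbp5, Gbp7, Irgm2 and Igtp. Over all 32851 RefSeq promoters in the same window, 2.98% held the ISRE core letters, 7.02% the GAS letters and 0.332% both. Gbp2 and the first start of Gbp3 held the ISRE core letters alone, and the second start of Gbp3 held neither. A match is a string of letters in this window, and binding was not measured.

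**Figure D1:**
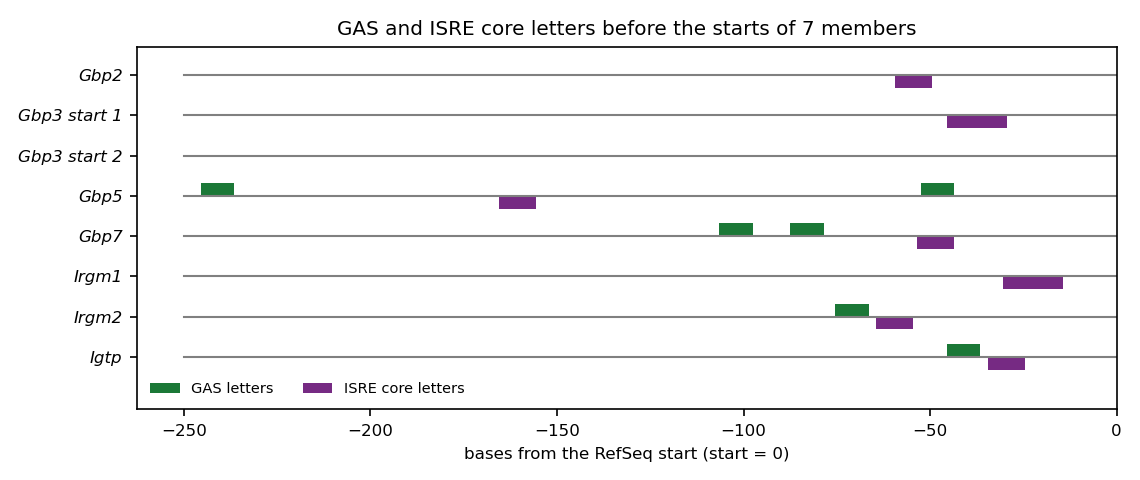
Positions of GAS letters (green, above each line) and ISRE core letters (purple, below each line) in the 250 bases before 8 RefSeq starts of 7 members; the horizontal axis gives bases from the start, and overlapping matches are drawn as 1 bar. Igtp and Irgm2 each hold a GAS match directly before an ISRE core match, and the second start of Gbp3 holds no match.

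In the genome (GRCm38) the GBP genes Gbp5, Gbp7, Gbp3 and Gbp2 lie in that order on the plus strand of chromosome 3, from 142493978 to 142638008, within 144.0 kb. Gbp6 is on the minus strand of chromosome 5 from 105270702 to 105293698. Irgm1 is on the minus strand of chromosome 11 from 48861968 to 48871683. Igtp, from 58199556 to 58207591, and Irgm2, from 58199618 to 58222782, are both on its plus strand, and GENCODE M21 lets these genes overlap.

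Sequence shared with other genes limits some of these values. Of all stretches of 61 bases, the read length, in annotated transcripts, 69.2% of those of Gbp6 also occurred in another gene, mostly Gm43302, and 12.03% of those of Gbp7 did, mostly in Gm43802. For Igtp the share was 9.88%, all with Irgm2, and for Irgm2 6.35%, and it was 2.90% for Gbp3, 1.51% for Gbp2, 1.07% for Gbp5, 0.540% for Iigp1 and 0.189% for Irgm1. How reads matching several genes were counted is not given in the sources used here, so the level of Gbp6 in particular may include reads of its paralogs.

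The libraries are given as TPM, a length-scaled share of transcripts with the same sum in each library and 1 decimal, so the depth behind a value is unknown, and between 12456 and 15484 genes reached 1 TPM. Tgfb1 lay between 1.3 and 2.0 TPM in KO microglia, between 2.8 and 3.4 TPM in control microglia and at most at 0.3 TPM in astrocytes. P2ry12, a microglial receptor, was between 206.2 and 265.4 TPM in KO microglia, between 3440.6 and 4100.6 TPM in control microglia, between 6.7 and 12.4 TPM in KO astrocytes and between 8.4 and 14.7 TPM in control astrocytes. Slc1a2, the astrocytic glutamate transporter, was between 190.8 and 426.3 TPM in KO astrocytes, between 310.5 and 377.6 TPM in control astrocytes and at most 1.4 TPM in microglia. All KO mice and control mice 1 and 2 held Xist RNA, whereas control mice 3, 4 and 5 held Y-linked Ddx3y RNA instead. Sex therefore differs in part between genotypes, and values against each kind of control are given below.

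In KO microglia 5 of the 9 GTPase genes were higher than in control microglia and none passed the test as lower. Iigp1, an effector IRG, had the largest difference, followed by Gbp6, Gbp7, Gbp3 and the regulator Irgm1. The most abundant members, the regulators Igtp and Irgm2, did not pass. Gbp6 and Iigp1 were below 1 TPM in 4 and 2 of the 4 control libraries and entered the test through the KO libraries, and when genes of any level were tested Iigp1, Gbp6 and Irgm1 passed. Over all 13054 genes tested, 14.2% were called higher and 14.2% lower, and the median log2 difference was 0.70 for the 9 members and 0.0040 for all genes. In bulk libraries a change in the number of cells that express a gene cannot be told apart from a change per cell, and the p-values measure the spread between these mice.

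Iigp1, which coats the membranes of parasite vacuoles, had 29.8, 35.3, 41.9 and 26.0 TPM in KO microglia of mice 1 to 4, against 1.4, 0.7, 0.8 and 2.8 TPM in control microglia of mice 1, 2, 4 and 5. Every KO library lay far above every control library. The difference was 3.88 on the log2(TPM + 1) scale used for all differences here (SE 0.27; limma, adjusted p = 6.4e-06), and it was 2.57 with a pseudocount of 5 TPM. The gene spans 60376027 to 60392634 of chromosome 18, plus strand.

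Among the regulators, Irgm1, which in mice is needed for resistance to several intracellular pathogens, had 75.8, 99.3, 109.3 and 87.7 TPM in KO microglia, against 52.2, 60.1, 61.2 and 59.3 TPM in control microglia. All KO values were above all control values, by a smaller ratio than for Iigp1, and the log2 difference was 0.66 (SE 0.13; limma, adjusted p = 0.00363). Irgm2 had 184.2, 215.9, 232.1 and 132.8 TPM in KO microglia, against 190.1, 212.9, 269.1 and 298.3 TPM in control microglia. The groups overlapped, with KO mouse 4 lowest and control mice 4 and 5 highest. Its log2 difference was -0.35 (95% interval -0.79 to 0.095; limma, adjusted p = 0.232). Igtp had 251.5, 319.4, 336.5 and 269.8 TPM in KO microglia, against 292.9, 295.2, 282.3 and 279.9 TPM in control microglia. The narrow range of the controls lay inside that of the KO libraries, and the log2 difference was 0.023 (95% interval -0.21 to 0.26; limma, adjusted p = 0.898).

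Of the GBP genes, Gbp7, of the same cluster as Gbp2, Gbp3 and Gbp5, was the most abundant, with 166.3, 200.4, 160.7 and 147.9 TPM in KO microglia, against 77.1, 56.9, 111.7 and 105.8 TPM in control microglia. The groups did not overlap, and the log2 difference was 0.97 (SE 0.21; limma, adjusted p = 0.00620). The call ended when genes of any level were tested (adjusted p = 0.0530), and the difference was 0.62 against control mice 4 and 5 alone. Gbp6 had 3.3, 5.2, 4.6 and 3.2 TPM in KO microglia, against 0.2, 0.0, 0.3 and 0.5 TPM in control microglia. It was near 0 in every control, and a gene that passes the filter on low values only through the KO libraries is bound to differ. Its log2 difference was 2.02 (SE 0.21; limma, adjusted p = 7.5e-05, and 0.00134 with no filter), with 3.81 for a pseudocount of 0.1 TPM and 0.78 for one of 5 TPM.

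Gbp3 had 11.8, 15.1, 13.7 and 12.9 TPM in KO microglia, against 5.3, 6.8, 9.8 and 10.4 TPM in control microglia. These groups did not overlap either, although control mice 4 and 5 came close to KO mouse 1. The log2 difference was 0.70 (SE 0.21; limma, adjusted p = 0.0317), a call that ended without control mouse 1 or 2 or any single KO mouse (adjusted p between 0.0533 and 0.0867), with no filter (0.110), in 1 fit over all groups (0.103) and against control mice 4 and 5 alone (0.109).

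Gbp5, whose human protein promotes inflammasome assembly, had 11.2, 11.8, 19.5 and 8.4 TPM in KO microglia, against 4.9, 1.0, 10.8 and 9.7 TPM in control microglia. KO mouse 4 lay below 2 of the controls, and the log2 difference of 1.08 did not pass (SE 0.52; limma, adjusted p = 0.160). Gbp2, a GBP that restricts Toxoplasma gondii in mice, had 41.9, 63.6, 68.1 and 23.2 TPM in KO microglia, against 28.0, 38.6, 41.4 and 47.3 TPM in control microglia. KO mouse 4 was the lowest of all 8 libraries and KO mice 2 and 3 the highest, and the log2 difference was 0.24 (95% interval -0.47 to 0.96; limma, adjusted p = 0.625). The 5 members without overlap, all higher in KO microglia, were the 5 called ones, against 14.8% of all tested genes without overlap and higher. For Gbp6, among these 5, the lack of overlap followed from the filter, which it passed only through the KO libraries.

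**Figure D2:**
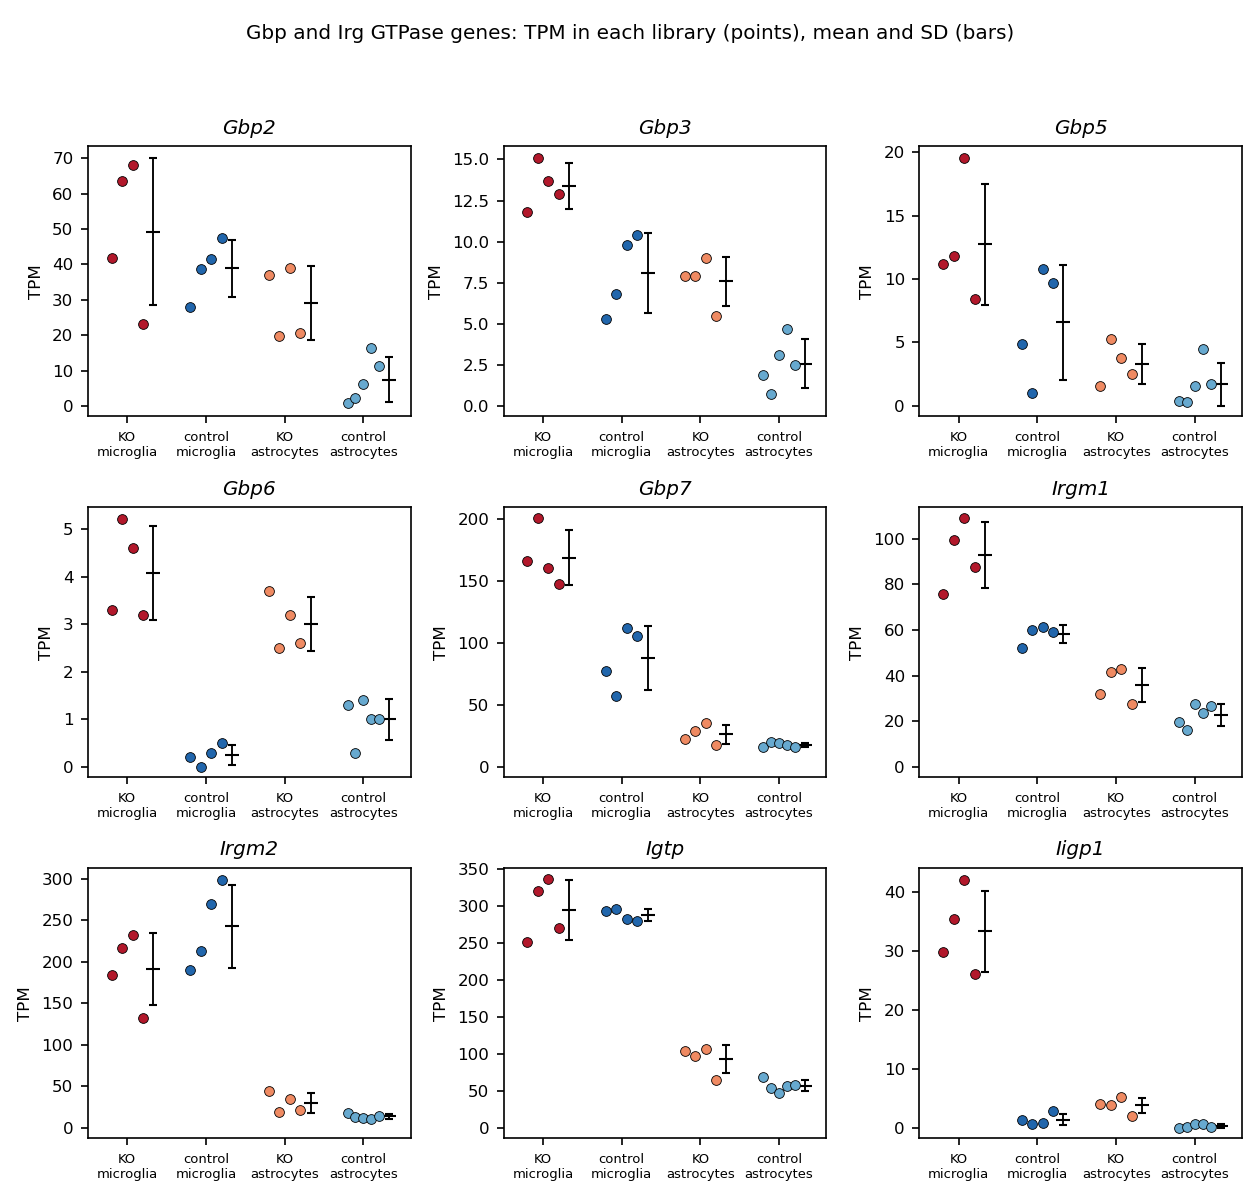
TPM (vertical axis, linear, a separate scale for each gene) of the 9 genes in each library of KO microglia, control microglia, KO astrocytes and control astrocytes; points are libraries in order of mouse number and bars give the mean and SD. Iigp1 and Gbp6 stay at or below 2.8 and 0.5 TPM in control microglia and reach 41.9 and 5.2 TPM in KO microglia, while Igtp overlaps between the microglial groups and lies lower in both astrocyte groups.

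The controls were not alike for every member. In microglia, control mice 1 and 2 had less Gbp5 (1.0 to 4.9 TPM), Gbp7 (56.9 to 77.1 TPM) and Irgm2 (190.1 to 212.9 TPM) than control mice 4 and 5, which had 9.7 to 10.8 TPM, 105.8 to 111.7 TPM and 269.1 to 298.3 TPM of these genes. Against control mice 1 and 2, which share Xist RNA with the KO mice, the log2 difference of Gbp5 was 1.94 and passed (limma, adjusted p = 0.0249), and against control mice 4 and 5 it was 0.23 (adjusted p = 0.603). Iigp1 (4.06 and 3.69), Gbp6 (2.19 and 1.84), Gbp7 (1.33 and 0.62) and Irgm1 (0.71 and 0.61) passed against control mice 1 and 2 and against control mice 4 and 5. Gbp3 passed against control mice 1 and 2 (1.03, adjusted p = 0.00680) and not against control mice 4 and 5 (0.37, adjusted p = 0.109). For Irgm2 these log2 differences were -0.10 and -0.60 (adjusted p = 0.776 and 0.0768), and for Igtp -0.0089 and 0.056. Gbp2 differed by 0.45 and 0.036 and passed against neither kind.

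Igtp and Irgm2 together made up 55.4% to 57.6% of the summed TPM of the 9 genes in KO microglia and 70.0% to 75.6% in control microglia. The sum itself was 860 ± 137 TPM in KO microglia and 731 ± 81.1 TPM in control microglia (SD, n = 4 each), with ranges of 711.9 to 986.4 TPM and 652.1 to 814.0 TPM that overlapped. The ratio of Irgm2 to Igtp was between 0.492 and 0.732 in KO microglia and between 0.649 and 1.07 in control microglia.

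Markers of other cells and of handling also differed between the microglial groups. For border-associated macrophages, which live in the meninges and along vessels, the 8 markers summed to between 5714.6 and 6493.4 TPM in KO microglia and to between 389.6 and 744.8 TPM in control microglia, and none of the 8 was at 0. The 8 immediate-early and dissociation genes summed to between 848.8 and 1101.9 TPM in KO microglia and to between 283.9 and 609.9 TPM in control microglia. The 8 astrocyte markers went the other way, with sums between 85.1 and 100.1 TPM in KO and between 298.4 and 632.3 TPM in control microglia, as did the 6 markers of monocytes and neutrophils, with 1.9 to 4.3 TPM in KO and 4.7 to 31.5 TPM in control microglia. Markers of T and NK cells, the main sources of interferon gamma, summed to between 3.1 and 7.9 TPM in KO microglia and to between 0.3 and 10.6 TPM in control microglia. The part of these markers and of the dissociation genes in the levels of the GTPase genes was not tested.

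In astrocytes, whose own Tgfb1 alleles the Cre does not target, all 9 GTPase genes had higher means in KO than in control mice, and none passed the test. A positive difference was also found for 60.1% of all genes tested there. Over all 15231 genes tested limma called 1 gene, Usp18, an interferon-induced protease, or 0.00657% of all, and 1939 genes had an unadjusted p under 0.05. Of the 9 members 8 had an unadjusted p under 0.05, all but Gbp5, and 5 did not overlap between groups, against 2.94% of all tested genes without overlap and higher. Iigp1, among these 5, passed the filter only through the KO libraries and was bound not to overlap. The median log2 difference was 1.00 for the members and 0.072 for all genes.

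Gbp2 had 36.9, 19.8, 39.1 and 20.5 TPM in KO astrocytes of mice 1 to 4, against 0.9, 2.3, 6.2, 16.4 and 11.3 TPM in control astrocytes of mice 1 to 5. The groups did not overlap, but the controls spread widely, with mice 1 and 2 lowest. The log2 difference was 2.20 (SE 0.60; limma, adjusted p = 0.288). Against control mice 1 and 2 alone it was 3.52 and passed (adjusted p = 0.0285), and against control mice 3, 4 and 5 it was 1.31 (adjusted p = 0.606).

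Iigp1 had 4.1, 3.9, 5.2 and 2.1 TPM in KO astrocytes, against 0.0, 0.2, 0.7, 0.7 and 0.2 TPM in control astrocytes. No control reached 1 TPM and every KO library exceeded it, with a log2 difference of 1.82 (SE 0.25; limma, adjusted p = 0.154). Iigp1 entered this test only through the KO libraries, so a difference and a lack of overlap were bound to follow. Gbp6 had 3.7, 2.5, 3.2 and 2.6 TPM in KO astrocytes, against 1.3, 0.3, 1.4, 1.0 and 1.0 TPM in control astrocytes. Gbp3 had 7.9, 7.9, 9.0 and 5.5 TPM in KO astrocytes, against 1.9, 0.7, 3.1, 4.7 and 2.5 TPM in control astrocytes. Neither gene overlapped between groups, and their log2 differences were 1.02 and 1.35 (limma, adjusted p = 0.221 and 0.253).

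Irgm2 had 44.4, 19.3, 35.2 and 21.2 TPM in KO astrocytes, against 18.3, 13.1, 12.3, 11.3 and 14.3 TPM in control astrocytes. KO mouse 2 was close to control mouse 1, without overlap, and the log2 difference was 1.00 (SE 0.25; limma, adjusted p = 0.269). Igtp had 104.0, 97.0, 106.7 and 64.4 TPM in KO astrocytes, against 68.8, 54.2, 47.8, 56.4 and 57.8 TPM in control astrocytes. Only KO mouse 4 fell within the range of the controls, and the log2 difference was 0.68 (SE 0.16; limma, adjusted p = 0.268). Irgm1 (27.4 to 42.9 TPM in KO and 16.3 to 27.7 TPM in control astrocytes), Gbp7 (18.0 to 35.1 TPM and 15.7 to 20.2 TPM) and Gbp5 (1.6 to 5.3 TPM and 0.3 to 4.5 TPM) overlapped between groups, with log2 differences of 0.64, 0.51 and 0.80.

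When the spread was estimated over all 4 groups in 1 fit, 4 members passed in astrocytes, Iigp1, Gbp3, Gbp6 and Igtp. The sum of the 9 genes was 232 ± 50.3 TPM in KO astrocytes (SD, n = 4) and 124 ± 11.2 TPM in control astrocytes (SD, n = 5), between 164.2 and 280.2 TPM and between 107.6 and 136.1 TPM. Control mice 1 and 2 were low in astrocytes too for Gbp2 (0.9 to 2.3 TPM), Gbp3 (0.7 to 1.9 TPM) and Gbp5 (0.3 to 0.4 TPM), against 6.2 to 16.4 TPM, 2.5 to 4.7 TPM and 1.6 to 4.5 TPM in control mice 3, 4 and 5. Against control mice 3, 4 and 5 alone 0 members passed.

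Mural and fibroblast-like markers, 6 genes, summed to between 447.0 and 4705.4 TPM in KO astrocytes and to between 94.3 and 1572.7 TPM in control astrocytes, highest in KO mice 3 and 1 and lowest in control mice 2 and 1. KO mouse 4, at 1781.2 TPM, was also above every control. Without KO astrocyte libraries 1 and 3 the log2 differences of the members ran from 0.36 for Gbp7 to 1.75 for Gbp2, with 1.55 for Iigp1, and none passed. Oligodendrocyte markers summed to between 3845.6 and 8725.9 TPM in KO and to between 2636.6 and 3887.6 TPM in control astrocytes. Endothelial markers summed to between 31.1 and 410.5 TPM in KO and to between 28.9 and 125.0 TPM in control astrocytes. Microglial markers, at 247.1 to 426.0 TPM in KO and 304.6 to 374.6 TPM in control astrocytes, overlapped. In microglia the same 8 markers gave sums of 9456.9 to 10455.6 TPM in KO and 37653.6 to 41597.6 TPM in control mice. Overlapping sums in astrocytes therefore do not stand for equal shares of microglial RNA. Markers of border-associated macrophages, at 19.0 to 109.7 TPM in KO and 10.8 to 26.7 TPM in control astrocytes, overlapped too. The part of the cells behind any of these markers, microglia and macrophages included, in the levels of the GTPase genes was not tested.

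The KO effect in microglia was set against that in astrocytes in 1 fit over the 17 libraries, which asks for which GTPase genes it depended on the cell type. The difference passed for 4 members. Iigp1 and Gbp6 had a larger effect in microglia, as did 6.63% of all 17087 genes, and Irgm2 and Igtp a smaller one, as did 8.87% of all genes. For Iigp1 the effect was larger by 2.06 on the log2 scale (SE 0.38; limma, adjusted p = 0.00108), and with a pseudocount of 0.1 TPM by 1.23 without passing (adjusted p = 0.351). For Gbp6 it was larger by 1.00 (SE 0.28; limma, adjusted p = 0.0247), with 2.20 for a pseudocount of 0.1 TPM and 0.37 for one of 5 TPM. That call ended with the mouse as a block (adjusted p = 0.0523), without KO microglia of mouse 2 (0.0584) or 3 (0.0526) or KO astrocytes of mouse 4 (0.0507), and with control mice 1 and 2 alone (0.121).

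For Irgm2 the difference of effects was -1.35 (SE 0.34; limma, adjusted p = 0.0119). It came to -0.93 with control mice 1 and 2 alone and did not pass (adjusted p = 0.226), while leaving out any 1 library kept the call. For Igtp it was -0.66 (SE 0.20; limma, adjusted p = 0.0387), and that call rested on single libraries. It ended with the mouse as a block (adjusted p = 0.0521), with no filter (0.0810), median-of-ratios scaling (0.0765) or no trend of the variance (0.0572), and with control mice 1 and 2 (0.230) or 3, 4 and 5 alone (0.0972). It also ended without any 1 of 13 of the 17 libraries, and held only without control astrocytes of mouse 1, KO microglia of mouse 2 or 3, or KO astrocytes of mouse 4, with adjusted p between 0.00255 and 0.0882 over the 17. For Gbp2 the difference was -1.95 (SE 0.75; limma, adjusted p = 0.0949), and it passed without control astrocytes of mouse 4 (-2.32, adjusted p = 0.0304) and with control mice 1 and 2 alone (-3.07, adjusted p = 0.0100). Gbp3 (-0.65), Gbp5 (0.28), Gbp7 (0.47) and Irgm1 (0.022) did not pass. The median difference of effects was 0.022 over the members and -0.057 over all genes.

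**Figure D3:**
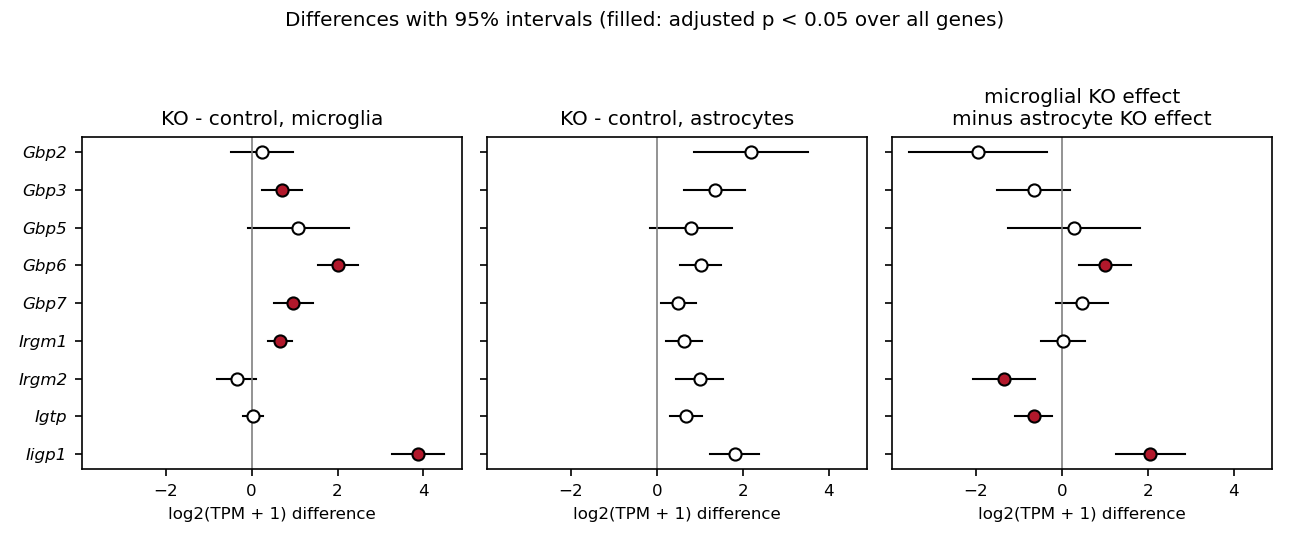
Differences of log2(TPM + 1) (horizontal axes, same scale) with 95% intervals for the 9 genes: KO minus control in microglia, KO minus control in astrocytes, and the first minus the second; filled points had an adjusted p below 0.05 over all genes tested. In microglia 5 genes are filled and Irgm2 and Igtp lie at -0.35 and 0.023. In astrocytes all 9 points lie above 0, as did 60.1% of all genes tested, and none is filled.

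Most of these genes were more abundant in microglia than in astrocytes, in both genotypes. In control mice 6 of the 8 tested members were higher in microglia, against 26.2% of all 15332 genes tested, and Gbp6 was lower, as were 39.5% of all genes. Irgm2 differed most, by 4.03 on the log2 scale, followed by Gbp2 (2.64), Igtp (2.32), Gbp7 (2.20), Gbp3 (1.41) and Irgm1 (1.34), with adjusted p between 9.1e-09 and 0.00374 (limma). Gbp5 differed by 1.41 and did not pass (adjusted p = 0.0524), but passed with the mouse as a block (adjusted p = 0.00643), without control microglia of mouse 2 (0.00559) and without control astrocytes of mouse 4 (0.0213). Gbp6, at 0.25 ± 0.208 TPM in control microglia (SD, n = 4) and 1.00 ± 0.430 TPM in control astrocytes (SD, n = 5), was lower in microglia by a log2 difference of -0.66 (limma, adjusted p = 0.0177). It was below 1 TPM in all control microglia and entered this test only through the control astrocytes. The filter therefore favoured a lower microglial value. The call on Gbp6 ended with quantile normalization (-0.24, adjusted p = 0.317) and without control microglia of mouse 2 (adjusted p = 0.0588), and the difference was -1.78 and -0.19 with pseudocounts of 0.1 and 5 TPM. Iigp1, at 1.43 ± 0.967 TPM in control microglia (SD, n = 4) and 0.360 ± 0.321 TPM in control astrocytes (SD, n = 5), was too low to be tested there.

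In KO mice 7 members were higher in microglia than in astrocytes, against 26.4% of all 15365 genes tested. Iigp1 differed by 2.85, Irgm2 by 2.68, Gbp7 by 2.67, Gbp5 by 1.69, Igtp by 1.67, Irgm1 by 1.36 and Gbp3 by 0.76, with adjusted p between 1.5e-06 and 0.00227 (limma). Gbp2 (0.69) and Gbp6 (0.33) did not pass (adjusted p = 0.114 and 0.131). Gbp2 passed without KO microglia of mouse 4 (1.01, adjusted p = 0.0159), and with quantile normalization Gbp2 (0.94) and Gbp6 (0.82) both did. Quantile normalization moved the median of all genes to 0.076 in control mice, against -0.19 as deposited, with 5392 genes higher and 5057 lower in microglia, against 4016 and 6062. In KO mice it moved the median to 0.097, against -0.24, with 5847 higher and 5204 lower, against 4058 and 6599.

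The order of mean levels over the 4 groups fell into 4 patterns. Gbp2, Gbp3, Gbp5, Gbp7, Irgm1 and Igtp were highest in KO microglia, then in control microglia, KO astrocytes and control astrocytes, and for Gbp3 the control microglia (8.07 ± 2.43 TPM) and KO astrocytes (7.58 ± 1.48 TPM; SD, n = 4 each) lay within each other's spread. Irgm2 differed from them in that control microglia (243 ± 49.8 TPM) came above KO microglia (191 ± 43.8 TPM; SD, n = 4 each), with ranges that overlapped. Iigp1 was higher in KO astrocytes (3.83 ± 1.28 TPM, SD, n = 4) than in control microglia (1.43 ± 0.967 TPM, SD, n = 4), with ranges that overlapped. Gbp6 had both KO groups on top, and control astrocytes above control microglia. Ranges of neighbouring groups also overlapped for every pair of Gbp5, for both pairs of Gbp2 above the control astrocytes, for KO and control microglia of Igtp, and for KO and control astrocytes of Gbp7, Irgm1 and Igtp. For Gbp6 the 2 KO groups overlapped, as did the 2 control groups, and for Iigp1 the 2 control groups met at 0.7 TPM.

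Other genes of the 2 families were looked at in the same fits. Of 17 further GBP and IRG genes 13 were tested in microglia, where 8 rose, none fell and 5 did not pass, with a median log2 difference of 1.19. Among all genes tested there, 14.2% were called higher and 14.2% lower. The T-cell-specific GTPase genes Tgtp2 (168.8 to 254.3 TPM in KO microglia, 8.5 to 37.3 TPM in control microglia; 3.45) and Tgtp1 (100.7 to 159.3 TPM and 5.1 to 24.4 TPM; 3.39), which are effector IRGs like Iigp1, rose. Shared sequence was not examined for these further genes, so the values of Tgtp1 and Tgtp2 may include reads of each other. The IRG gene F830016B08Rik (6.0 to 7.8 TPM in KO and 0.1 to 1.5 TPM in control microglia; 2.34) and Gbp10 (10.0 to 19.5 TPM and 0.0 to 1.8 TPM; 3.07), a further guanylate-binding protein gene, rose as well. With control values down to 0.1 and 0.0 TPM, both entered the test through the KO libraries, so the filter favoured a rise. Both count among the 8. In astrocytes 10 of the 17 were tested. All 10 had a positive difference, against 60.1% of all genes tested, 6 had an unadjusted p under 0.05 and none passed. Gm4951 and Gbp10 had the smallest p there (1.903, adjusted p = 0.154; 1.68, adjusted p = 0.221). The KO effect was larger in microglia for 2 of 13, F830016B08Rik (1.83, adjusted p = 0.00535) and Tgtp2 (1.98, adjusted p = 0.0457), and smaller for none. It was larger for 6.63% and smaller for 8.87% of all genes.

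**Figure D4:**
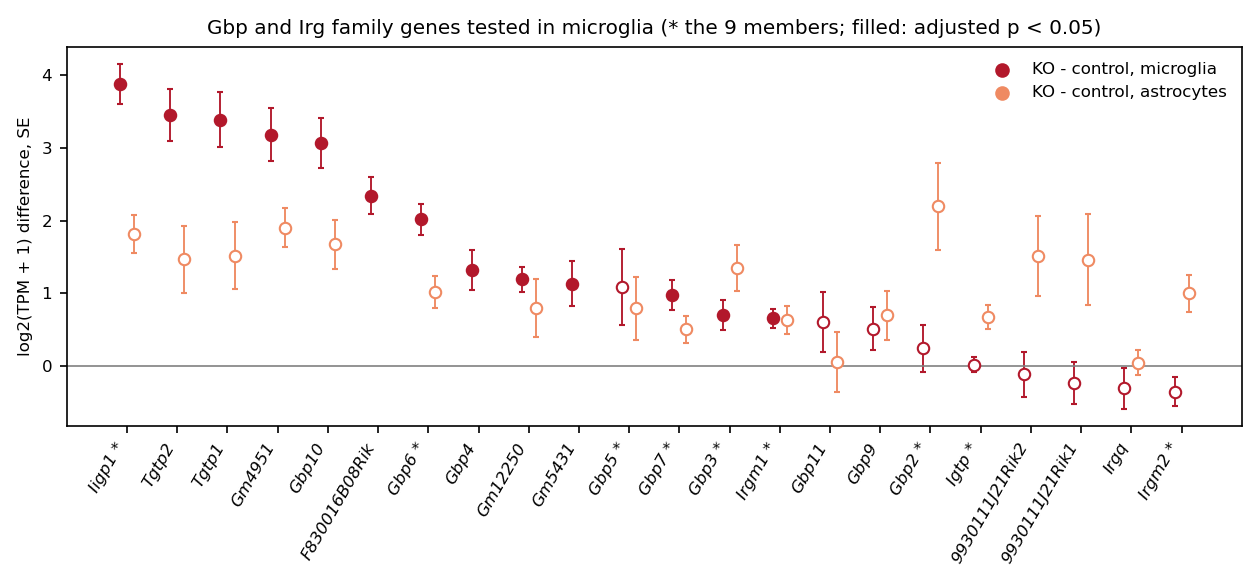
KO minus control difference of log2(TPM + 1) (vertical axis) with its SE for the 22 GBP and IRG genes tested in microglia, ordered by the microglial difference, in microglia (dark) and, where tested, in astrocytes (light); asterisks mark the 9 genes of the opening and filled points had an adjusted p below 0.05 over all genes. Iigp1, Tgtp2 and Tgtp1 lie between 3.39 and 3.88 in microglia, and Irgm2 lies last at -0.35.

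Of 4 other genes of large interferon-induced proteins, not all of them GTPases, 3 rose in KO microglia, against 14.2% of all genes tested. Mx2 (1.98), Mx1 (2.85), antiviral dynamin-like GTPases, and Rnf213 (1.18), a ubiquitin ligase, rose, while Gvin1 had 9.2 to 15.6 TPM in KO and 4.5 to 9.8 TPM in control microglia and did not pass (0.66, limma, adjusted p = 0.0679). Neither of the 2 tested in astrocytes passed, where 1 of all 15231 genes tested did.

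Genes of interferon gamma signalling were split in KO microglia. Of 11 tested, 4 rose, 2 fell and 5 did not pass, with a median of 0.072. The shares over all genes tested in microglia were 14.2% higher and 14.2% lower. Nlrc5, the activator of class I antigen presentation genes (1.46), and the chemokine gene Cxcl10 (2.80) were among those that rose. Socs1, an inhibitor of the receptor kinases, fell by 1.17 on the log2 scale, with 1.2 to 2.8 TPM in KO and 3.9 to 7.7 TPM in control microglia. Of 7 tested genes of type I signalling 5 rose and none fell, among them Irf7 (3.40), Ifnar1 (1.29), which encodes a receptor chain, Irf9 (0.80) and Stat2 (1.30). None of the 8 and 7 tested genes of these lists passed in astrocytes, where 1 of all 15231 genes tested did. Differences there were positive for 7 of the 8 and 6 of the 7, against 60.1% of all genes. An unadjusted p under 0.05 (limma) was found for 2 genes of each list, against 1939 of all genes.

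All 12 response genes of type I interferon rose in KO microglia, against 14.2% of all genes tested, with a median of 2.97. In astrocytes 1 of 12 did, Usp18 (2.66), the only gene called among all 15231 tested there (0.00657%). The median there was 1.39, and all 12 differences were positive, against 60.1% of all genes. All 12 also had an unadjusted p under 0.05 (limma), against 1939 of the 15231 genes. This list was chosen with earlier results of these data known, so its count is a description. Ifitm3 (4.12), Oas1a (3.22), Oasl2 (3.81) and Usp18 (2.55) had the smallest p in microglia. The effect was larger in microglia for 8 of the 12, against 6.63% of all genes. The smallest difference of this list was 1.52 for Bst2, a gene picked after its values were seen. Iigp1 and Gbp6 lay above it in microglia and the other 7 members below it.

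Partners of the GTPase proteins were called in both directions or not at all in KO microglia. Among all genes tested there, 14.2% were called higher and 14.2% lower, and lists this short give no direction for the partners as a set. Of 10 genes of the autophagy conjugation system, which loads IRG and GBP proteins onto vacuoles, Gabarap rose (0.63), Gabarapl2 and Atg5 fell (-0.59 and -0.41) and 7 did not pass in KO microglia. Of 8 inflammasome genes, which act downstream of GBPs, Il1b (1.88) and Casp1 (0.40) rose, 3 fell, among them Pycard (-0.92) and Gsdmd (-0.69), and 3 did not pass. None of the 5 genes of the prenylation pathway, which gives Gbp2 and Gbp5 their lipid anchors, passed. Rce1 (0.24, limma, adjusted p = 0.147) and Fntb (0.24, adjusted p = 0.329) had the smallest p. In astrocytes none of these 3 lists had a gene past the threshold, which 1 of all 15231 genes tested there passed.

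Over the 17 libraries, the genes whose profile lay nearest to the mean profile of the 9 members included Ifih1, an RNA sensor, with a root mean squared difference of 0.282 on the log2 scale, Snap23 (0.327), Irf9 (0.337) and Gm39839 (0.363). Ifih1 averaged 27.8 TPM in KO microglia, 15.7 TPM in control microglia, 7.55 TPM in KO astrocytes and 3.82 TPM in control astrocytes. Of the members themselves Irgm1 (0.336) and Gbp3 (0.384) were nearest to that mean, and Gbp6 (1.00), Irgm2 (1.01) and Iigp1 (1.04) farthest. These distances are a description over libraries that share cell type and genotype.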

How the data were processed

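RNA of sorted microglia and astrocytes was sequenced as paired reads of 61 bases, per the labels' protocols. The authors deposited TPM values, scaled within each library and rounded to 1 decimal (a value under 0.05 TPM appears as 0), so depth is unknown. The submitters' processing notes give STAR 2.6.1e, featureCounts 1.6.2, cutadapt 1.9.1, Trim Galore 0.4.2 and the build mm10. The annotation, strand setting and handling of reads that map to several places are not given in the sources used here.

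Values were put on the log2(TPM + 1) scale. A gene was tested when it reached 1 TPM in 4 or more of the libraries compared. The test was limma's moderated test (version 3.58.1 in R 4.3.3), run two-sided and with a trend of the variance, and p-values were adjusted by Benjamini-Hochberg over all genes tested, with 0.05 as the threshold. The fit was tested on simulated data. Cell type and genotype in the labels set the groups. Alternatives were other pseudocounts (0.1 or 5 TPM), a filter at 5 TPM or none, quantile normalization, median-of-ratios scaling, no trend of the variance, a block for the replicate number, a single fit of all groups, each kind of control alone, and each library left out in turn. Leaving out KO astrocyte libraries 1 and 3 together was added after seeing the data.

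The labels number the mice. Between genotypes a number stands for different mice and does not pair them. Between cell types it is the same mouse, and deviations from the group means in libraries of the same mouse correlated at 0.030 to 0.19 across 17087 genes. Values with the mouse as a block therefore stand beside the results whose call they change.

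The members and gene lists were chosen with earlier results of these data known. The text names the 9 members, Tgfb1, for each list up to 4 genes past the threshold, those of smallest p (or 2 where none passed, or a whole list of 6 or fewer) and the 5 genes nearest to the members' mean profile, of which 1 is not reported here. Other names were chosen after their values were seen. Transcript sequence and positions are from GENCODE M21 (GRCm38), promoters from RefSeq (GRCm38.p6). Plots were drawn with matplotlib 3.10.9 under Python 3.11.15.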

Additional observations from a re-analysis of the deposited data

Results flagged for a closer look

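For 4 of the 9 GTPase genes the KO effect differed between the cell types by the test of that difference itself (limma contrast over 17 libraries, adjusted p below 0.05). The effect in microglia minus that in astrocytes was 2.06 for Iigp1 and 1.00 for Gbp6 on the log2(TPM + 1) scale, larger in microglia. It was -1.35 for Irgm2 and -0.66 for Igtp, the neighbouring regulators on chromosome 11, smaller in microglia. Both cell types came from the same mice, and with the mouse as a block Gbp6 (adjusted p = 0.0523) and Igtp (0.0521) no longer passed. Igtp also did not pass without any 1 of 13 of the 17 libraries, Iigp1 with a pseudocount of 0.1 TPM (0.351), and Irgm2 with control mice 1 and 2 alone (0.226). No library stood far enough from the rest of its group to be noted in any of the 36 combinations of member and group.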

How the results depend on the processing

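The depth behind each TPM value is unknown, so no counting error is given, and low members (Gbp6, Iigp1, Gbp5) depend most on the pseudocount. In microglia, where 5 members passed, 3 did with no filter, and leaving out each library left 4 or 5. With the replicate number as a block 2079 genes were called in microglia, against 3711, and 4 members. In astrocytes, where 0 members passed, 4 did in 1 fit over all groups and 1 with control mice 1 and 2 alone. Of all genes in astrocytes, where 1 passed, 11 did with no filter, 0 with the replicate block, 88 in 1 fit over all groups, 51 against control mice 1 and 2, 7 against control mice 3, 4 and 5, 0 without KO astrocyte libraries 1 and 3, and 0 to 5 when each library was left out. Of the 4 members whose KO effect differed between cell types 2 passed with the replicate block and 2 with control mice 1 and 2 alone. Some values near 0, none of them past the threshold, changed sign. Igtp in microglia (0.023) was -0.022 with quantile normalization, -0.057 with the replicate block, -0.0089 against control mice 1 and 2, and between -0.044 and 0.095 when each library was left out. The difference of effects of Gbp5 (0.28) was -0.023 with a pseudocount of 0.1 TPM, -0.040 with control mice 3, 4 and 5, and between -0.26 and 0.59 over the libraries left out. That of Irgm1 (0.022) was -0.052 with the replicate block, -0.23 with control mice 1 and 2, and between -0.098 and 0.13 over the libraries left out. Between genotypes the replicate numbers do not pair mice (correlations of deviations between -0.076 and 0.18), and the block, which uses up degrees of freedom, ended the call of Gbp3 in microglia (adjusted p = 0.0809). The other causes were not tested.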
